A study of Mus musculus with 12 samples.

Results

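Serum response factor and the actin cytoskeleton were followed through 10 genes in the liver of mice without functional cryptochromes. The genes are Srf, Mkl1, Actb, Actg1, Cfl1, Tpm4, Tagln2, Myh9, Flna and Vcl, chosen by symbol from a deposited count table of 22618 genes. All 10 were in the table and all 10 passed the filter on low counts, which left 17142 genes to test. The livers came from night-fed male Cry1/2 double-knockout mice of the C57BL/6j strain, 12-16 weeks old and conventionally raised. Total RNA was sequenced at zeitgeber time (ZT) 14, 18 and 22, called night here, and at ZT02, ZT06 and ZT10, called day. Each of the 6 time points has 2 libraries, which makes 12. Lights go off at ZT12 by convention; the sources used here do not state the light schedule. Every library carries the same deletions and the same feeding schedule, and wild-type livers were not analysed here, so the mutant is compared only with itself at other hours. The labels do not say that the 2 libraries of a time point came from separate mice, and p-values therefore rest on a spread that may be partly technical.

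Serum response factor (SRF) is a transcription factor that binds DNA at a short element called the CArG box. In the branch that responds to the cytoskeleton, the coactivator MKL1 (also named MRTF-A) is held inactive by monomeric actin; when monomers are built into filaments MKL1 enters the nucleus and, with SRF, activates genes of actin and of actin-binding proteins. A second branch pairs SRF with ternary complex factors such as ELK4 and activates immediate early genes. In liver, the actin cytoskeleton supports bile canaliculi in hepatocytes and contraction and adhesion in sinusoidal and stellate cells.

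The promoters that hold the SRF element by sequence are shown here because the element links the regulator to its targets. RefSeq promoter windows on GRCm38.p6, from 250 bases before a gene's start to 50 after, were found for 9 of the 10 genes; Actb was not among them. A CArG box (consensus by name, both strands searched) was found in 3 of these 9 genes, Srf, Actg1 and Vcl. Of all 27025 genes with a window, 1.81% had a match. Srf had 2 matches, and Actg1 and Vcl had 1 each. The stretches below lie upstream of the start and are given 5′ to 3′ on the gene's strand, with the CArG matches in capitals. That of Srf spans chr17:46556176-46556312 on the minus strand, that of Actg1 chr11:120348543-120348645 on the minus strand, and that of Vcl chr14:20929148-20929267 on the plus strand.
Srf: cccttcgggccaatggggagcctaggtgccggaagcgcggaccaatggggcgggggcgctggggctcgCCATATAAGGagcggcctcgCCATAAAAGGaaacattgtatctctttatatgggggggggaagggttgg
Actg1: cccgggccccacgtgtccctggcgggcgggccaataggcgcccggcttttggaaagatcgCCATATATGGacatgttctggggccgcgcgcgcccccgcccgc
Vcl: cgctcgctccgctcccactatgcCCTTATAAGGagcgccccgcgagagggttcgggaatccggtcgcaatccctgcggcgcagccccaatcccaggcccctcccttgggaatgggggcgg
The Srf matches began 82 and 62 bases before the start, the Actg1 match 90 bases before it and the Vcl match 227 bases before it. The windows of Mkl1, Cfl1, Tpm4, Tagln2, Myh9 and Flna held no match, which says only that these letters are not in these windows.

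Library totals were 34715506 to 46074052 counts, so a count of 0 would allow 0.0687 to 0.0854 CPM (3 counts of the TMM-adjusted library size, counting error only). CPM relate a gene's count to the size of its library, adjusted by TMM factors. Cry1 was at 5.71 to 13.6 CPM and Cry2 at 12.4 to 22.8 CPM; the deleted exons are not given in the sources used here, so these counts do not check the genotype. All 12 libraries had hepatocyte marker sums of 100812 CPM or more, and no marker of the 12 cell type lists was at 0 in all libraries. ZT22 replicate 1 stood apart: its 5 smooth muscle markers summed to 79.9 CPM, against 13.7 to 21.5 CPM in the other 5 night libraries and 11.8 to 17.8 CPM in the 6 day libraries. Myh11, smooth muscle myosin, was at 36.9 CPM in it and at 2.94 CPM in ZT22 replicate 2, and Krt19, a bile duct keratin, at 11.8 CPM and 0.909 CPM. The bile duct markers together summed to 64.6 CPM in ZT22 replicate 1, within their day range of 38.4 to 69.9 CPM. Of the others on that list, Krt7 (2.75 and 0.831 CPM), Epcam (4.79 and 1.19 CPM) and Spp1 (43.1 and 29.4 CPM) were also higher in replicate 1. Sox9 (2.12 and 2.99 CPM) was lower in it. Summed over their lists, Kupffer cell markers ranged over 250.1 to 402 CPM at night and 299 to 460.4 CPM by day, sinusoidal endothelial markers over 483 to 566 CPM and 501 to 648 CPM, and stellate cell and fibroblast markers over 409.7 to 509.9 CPM and 379 to 503 CPM. Of single markers of such cells, edgeR called Lyve1 of sinusoidal endothelium in the 24 h test (2.29-fold, peak at ZT 13.2 ± 0.78 h, adjusted p = 0.0103). It was 1 of 8 markers of its list called there, where 12.0% of all genes were called. Of these 8 markers, 4 had a positive night minus day difference. Cd8a of T cells was called lower at night, at 0.205 ± 0.123 CPM against 0.449 ± 0.138 CPM by day (adjusted p = 0.0111). It was 1 of 10 lymphocyte markers called lower, where 4.89% of all genes were, and 0 of the 10 had a positive difference. In bulk tissue, fewer cells of a type and less RNA per cell cannot be told apart.

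Per kilobase of exon, Actb was the most abundant of the genes, with a mean of 473 CPM per kb over the 12 libraries and a range of 317 to 648. Cfl1 followed at 35.5 (30.2 to 39.3), Myh9 at 25.0 (18.9 to 32.1) and Actg1 at 24.2 (13.6 to 56.4) CPM per kb. Tpm4 had 11.9 (9.95 to 14.7), Flna 6.75 (5.77 to 10.3), Vcl 6.70 (5.23 to 9.13) and Srf 4.81 (3.49 to 6.16) CPM per kb. Tagln2, at 3.77 (3.04 to 5.42), and Mkl1, at 1.03 (0.889 to 1.15) CPM per kb, were lowest. Among neighbours in this order, the ranges of Actb and Cfl1 and those of Tagln2 and Mkl1 did not overlap; all other neighbours overlapped.

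Over the day, Srf, Actb, Actg1 and Myh9 passed a test for a 24 h rhythm, and the other 6 genes did not pass that test. The time points span less than 24 h, so a repeat of the cycle was not observed. The test fitted 24 h cosine and sine terms with edgeR and called genes at a Benjamini-Hochberg adjusted p under 0.05 over all 17142 genes; it called 12.0% of all genes and 4 of these 10, and 8 of the 10 had an unadjusted p under 0.05, as did 31.5% of all genes. The called genes differed in their fitted peak times. The fitted peaks of Srf and Actg1 were at ZT 14.2 ± 0.63 h and ZT 16.3 ± 0.79 h (SE), while those of Myh9 and Actb were at ZT 21.1 ± 0.62 h and ZT 21.3 ± 0.65 h. The differences between peak times were not tested. All 10 genes had a higher mean log2 level at night than by day, as did 51.2% of all tested genes; without ZT02 replicate 2 and ZT06 replicate 1 together the difference of Mkl1 was -0.01 on the log2 scale. The median night minus day difference of the 10 was 0.24 on the log2 scale, against 0.01 over all tested genes, and the median 24 h range was 1.41-fold against 1.31-fold.

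**Figure D1:**
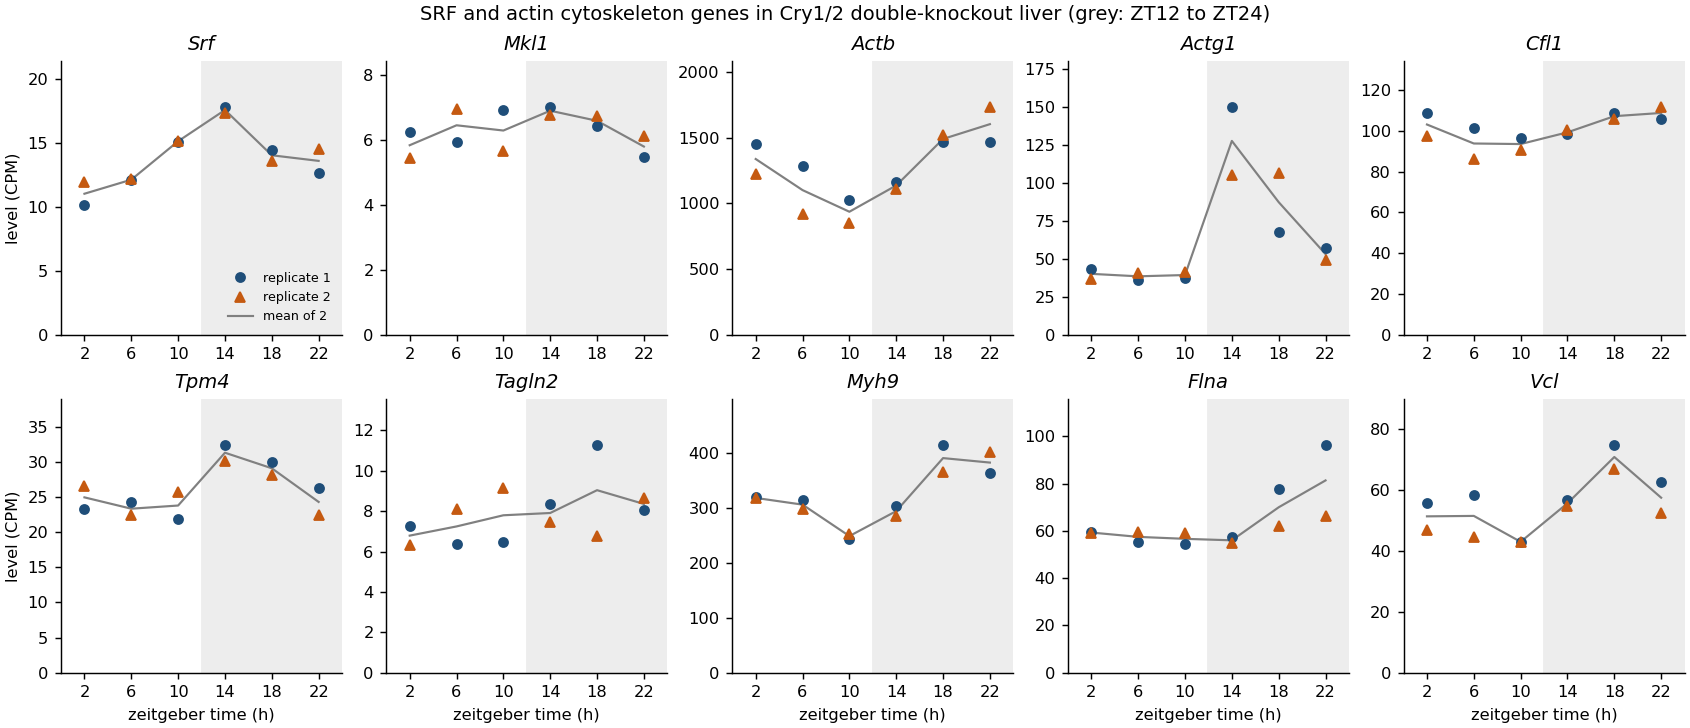
Levels of the 10 genes in CPM (vertical axes, each from 0) by zeitgeber time in hours (horizontal axes). Each point is 1 library, circles are replicate 1, triangles replicate 2, the line joins the means of 2, and grey marks ZT12 to ZT24. Srf is highest at ZT14 in both libraries, Actg1 is flat by day and high at ZT14, and Actb and Myh9 are lowest at ZT10 and high at ZT18 and ZT22.

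Srf (chr17:46548329-46556175, minus strand, GRCm38), the factor itself, was measured at 10.1 and 11.9 CPM at ZT02, 12.1 and 12.1 CPM at ZT06, 15.1 and 15.1 CPM at ZT10, 17.8 and 17.3 CPM at ZT14, 14.4 and 13.6 CPM at ZT18, and 12.6 and 14.5 CPM at ZT22. Both ZT14 libraries were above all others and both ZT02 libraries below all others, and the ZT10 libraries were above those of ZT18 and ZT22, so night and day overlapped. The fitted 24 h range was 1.49-fold (95% interval 1.28 to 1.73, edgeR adjusted p = 0.0132). Srf averaged 15.1 ± 2.06 CPM at night and 12.8 ± 1.99 CPM by day (SD, n = 6 each), a log2 difference of 0.24 ± 0.07 (SE) with an edgeR adjusted p of 0.0496. The test of any difference among the 6 time points gave an adjusted p of 0.0482. Both of these calls were lost when any 1 of the 12 libraries was left out, with adjusted p up to 0.140 for night minus day and 0.127 for any difference. They were also lost with limma-voom (0.0517 and 0.0526) and with no filter on low counts (0.0917 and 0.0694), and the night minus day call of Srf was lost with DESeq2 (0.0587). The 24 h call was kept in each of those 12 fits, and was lost without ZT02 replicate 1 and ZT06 replicate 2 together (adjusted p = 0.0897). The lincRNA Gm26904 overlaps the Srf gene on the opposite strand but shares no exon with it.

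Mkl1 (chr15:81012281-81190757, minus strand), the actin-sensing coactivator of SRF, was among the genes that passed none of the tests. It was measured at 5.47, 6.60 and 7.03 CPM (lowest, median and highest) at night and 5.44, 6.09 and 6.97 CPM by day. The groups overlapped over almost their whole range, and the night minus day difference was 0.05 ± 0.09 on the log2 scale (adjusted p = 0.766). An exon of Sgsm3 overlaps Mkl1 on the opposite strand, and the sources used here do not state the strand setting of the counting, so reads of the pair may be shared.

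Actg1 (chr11:120345690-120348542, minus strand) encodes cytoplasmic gamma-actin and had the largest change of the 10 genes in the 24 h test and in night minus day. Actg1 was measured at 43.3 and 36.8 CPM at ZT02, 36.1 and 40.8 CPM at ZT06, 37.2 and 41.4 CPM at ZT10, 150.0 and 105 CPM at ZT14, 67.7 and 107 CPM at ZT18, and 57.1 and 49.0 CPM at ZT22. The 6 day libraries lay within a narrow band, and each of the 6 night libraries was above all of them. It was the only member whose night and day libraries did not overlap; 1.60% of all tested genes had all night libraries above all day libraries, and 2.10%, none of the 10 among them, had all below. The mean was 89.2 ± 38.4 CPM at night and 39.2 ± 2.98 CPM by day (SD, n = 6 each), a 2.14-fold difference (log2 1.10 ± 0.13, edgeR adjusted p = 0.00155).

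The increase of Actg1 stood between ZT10 and ZT14. The ZT14 minus ZT10 difference was 1.70 ± 0.22 on the log2 scale, or 3.25-fold, with an adjusted p of 0.0118. This contrast called 1.23% of all tested genes, 0.723% higher at ZT14 and 0.508% lower, and of the 10 genes 1 higher and 0 lower. With 1 library left at a time point, whose spread is then taken from the other time points, this call was lost without ZT10 replicate 1 (log2 1.62, adjusted p = 0.122) and without ZT14 replicate 1 (log2 1.42, adjusted p = 0.0988). The 24 h range was 3.07-fold (95% interval 1.81 to 5.21, adjusted p = 0.00717), and the adjusted p for any difference among time points was 0.0051. The 24 h, any-difference and night minus day calls of Actg1 were kept in all 20 alternatives tried. The miRNA genes Gm23419 and Mir6935 overlap exons of Actg1 on the same strand. Gm23419 had a mean count of 257.9, and Mir6935 was not among the counted genes. How reads shared with them were counted is not given in the sources used here.

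Erythroid markers were also high in the ZT14 libraries, at 308 and 278 CPM summed, and ZT02 replicate 1 had 351 CPM of them with 43.3 CPM of Actg1. Lymphocyte markers summed to 2.71 and 3.53 CPM at ZT14, against 4.86 to 9.17 CPM in the other 10 libraries, and pancreatic acinar markers to 22.4 CPM in ZT14 replicate 2, against 0.334 to 4.46 CPM in the rest. The part of these cell types in the level of Actg1 at ZT14 was not tested.

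Actb (chr5:142903115-142906754, minus strand), which encodes beta-actin, followed another course. Actb was measured at 1453 and 1221 CPM at ZT02, 1282 and 919 CPM at ZT06, 1022 and 850.0 CPM at ZT10, 1166 and 1105 CPM at ZT14, 1463 and 1516 CPM at ZT18, and 1469 and 1735 CPM at ZT22. The 4 libraries of ZT18 and ZT22 were above all 8 others, and the lowest was at ZT10; the ZT14 libraries, in which Actg1 was highest, were in the middle of the range. The fitted range was 1.69-fold (95% interval 1.38 to 2.07, edgeR adjusted p = 0.0106), and this call was kept in all 20 alternatives. The test of any difference among time points missed the threshold for Actb (edgeR adjusted p = 0.0922). It passed in 3 of the 20 alternatives, among them DESeq2 (adjusted p = 0.000746). Actb averaged 1409 ± 235 CPM at night and 1124 ± 232 CPM by day (SD, n = 6 each). The log2 difference of 0.33 ± 0.10 missed the threshold (adjusted p = 0.0700), and passed it with DESeq2 (0.0170), with total counts as library sizes (0.0308) and without ZT06 replicate 1.

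As a percentage of Actb CPM, Actg1 came to 2.98 and 3.01 in the ZT02 libraries, 2.81 and 4.44 in those of ZT06, 3.64 and 4.87 in those of ZT10, 12.9 and 9.50 in those of ZT14, 4.63 and 7.04 in those of ZT18, and 3.88 and 2.83 in those of ZT22. The 2 ZT14 libraries stood above all others, and by ZT22 the percentage was back within the day range of 2.81 to 4.87. The coding sequences of the actins have 1128 bases each, differ at 128 of them and share no identical run longer than 62 bases, while reads were of 100 cycles at each end. How reads that matched both genes were counted is not given in the sources used here. Whether reads of Actb were placed on Actg1 was not tested.

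**Figure D2:**
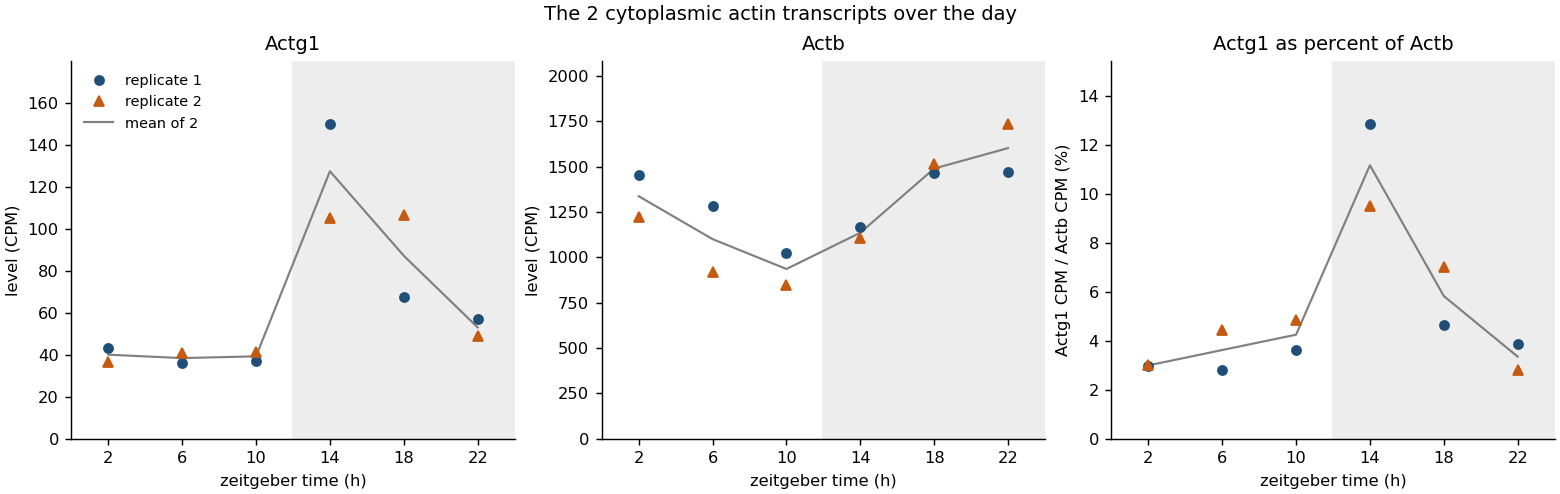
Actg1 and Actb in CPM and Actg1 as a percentage of Actb CPM (vertical axes, from 0) by zeitgeber time in hours; circles and triangles are replicates 1 and 2, the line joins means of 2, and grey marks ZT12 to ZT24. Actg1 reaches 150.0 and 105 CPM at ZT14, where Actb has 1166 and 1105 CPM, and the percentage there is 12.9 and 9.50.

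Among the proteins that act on filaments, Cfl1, Tpm4 and Tagln2 passed none of the tests. Cfl1 (chr19:5490455-5495201, plus strand) encodes cofilin, which severs and disassembles filaments. It was at 98.2, 106 and 112 CPM at night (lowest, median, highest) and at 85.9, 96.8 and 109 CPM by day. Its night minus day difference was 0.12 ± 0.06 on the log2 scale (adjusted p = 0.266). Tpm4 (chr8:72134975-72153142, plus strand) encodes a tropomyosin, which coats filaments. It was measured at 23.3 and 26.6 CPM at ZT02, 24.3 and 22.4 CPM at ZT06, 21.9 and 25.7 CPM at ZT10, 32.5 and 30.2 CPM at ZT14, 30.1 and 28.1 CPM at ZT18, and 26.2 and 22.4 CPM at ZT22. The 4 libraries of ZT14 and ZT18 were above all others, as they were for Actg1. The adjusted p of Tpm4 was 0.0928 in the 24 h test, 0.0788 for night minus day (log2 0.23 ± 0.07) and 0.153 for ZT14 minus ZT10 (log2 0.40 ± 0.13). Tagln2 (chr1:172500047-172507380, plus strand), transgelin 2, a filament-binding protein, was at 6.78, 8.22 and 11.3 CPM at night and 6.32, 6.86 and 9.12 CPM by day (adjusted p = 0.363). Within time points its log2 values varied with an SD of 0.28, the largest of the 10 genes, against 0.08 for Myh9, the smallest. Exons of Snx32 overlap Cfl1 and an exon of Gm26586 overlaps Tpm4, each on the opposite strand.

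Myh9 (chr15:77760587-77842175, minus strand) encodes the heavy chain of non-muscle myosin IIA, the motor that contracts actin bundles. Myh9 was measured at 319.6 and 317 CPM at ZT02, 314 and 298 CPM at ZT06, 245 and 253 CPM at ZT10, 304 and 285 CPM at ZT14, 416 and 367 CPM at ZT18, and 364 and 402 CPM at ZT22. As with Actb, the 4 libraries of ZT18 and ZT22 were above all others and the 2 of ZT10 were low, here below all others. The fitted range was 1.5-fold (95% interval 1.29 to 1.74, edgeR adjusted p = 0.0114), a call that was kept in all 20 alternatives. Myh9 averaged 356 ± 52.1 CPM at night and 291 ± 33.7 CPM by day (SD, n = 6 each), a log2 difference of 0.29 ± 0.06 with an adjusted p of 0.0216. The night minus day call ended when ZT02 replicate 2 (adjusted p = 0.0590), ZT06 replicate 2 (0.0520), ZT14 replicate 1 (0.0612), ZT18 replicate 1 (0.0830) or else ZT22 replicate 2 (0.0726) was left out. The adjusted p for any difference among time points was 0.0340; that call was lost without each library other than ZT06 replicate 1, with the highest adjusted p of 0.120 without ZT18 replicate 1.

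Vcl (chr14:20929398-21033676, plus strand) encodes vinculin, which ties integrins and cadherins to filaments. Vcl was measured at 55.8 and 46.8 CPM at ZT02, 58.4 and 44.4 CPM at ZT06, 42.9 and 43.0 CPM at ZT10, 56.5 and 54.6 CPM at ZT14, 74.8 and 66.7 CPM at ZT18, and 62.5 and 52.3 CPM at ZT22. Both ZT18 libraries were above all others and both ZT10 libraries below them, and the night and day values overlapped. Night averaged 61.2 ± 8.49 CPM and day 48.5 ± 6.81 CPM (SD, n = 6 each), a log2 difference of 0.33 ± 0.09 with an edgeR adjusted p of 0.0359. Removing a library ended this night minus day call in 9 of 12 cases, with the highest adjusted p of 0.116 without ZT18 replicate 1; it was kept without ZT02 replicate 1, ZT06 replicate 1 or ZT22 replicate 2. In the 24 h test Vcl missed the threshold (1.43-fold, 95% interval 1.13 to 1.82, adjusted p = 0.0609) and passed it with DESeq2 (0.0227), with total counts (0.0376), without ZT06 replicate 1, without ZT22 replicate 2 and in 2 further alternatives. Ap3m1, whose exons overlap Vcl on the opposite strand, had a night minus day difference of -0.07 on the log2 scale (adjusted p = 0.823).

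Flna (chrX:74223461-74249820, minus strand) encodes filamin A, which cross-links filaments and anchors them to the membrane. Flna was measured at 59.6 and 58.9 CPM at ZT02, 55.3 and 59.6 CPM at ZT06, 54.2 and 59.0 CPM at ZT10, 57.2 and 54.8 CPM at ZT14, 77.8 and 62.1 CPM at ZT18, and 96.4 and 66.2 CPM at ZT22. It was nearly flat over the first 4 time points, and its highest value was in ZT22 replicate 1, the library with 79.9 CPM of smooth muscle markers. The 24 h test gave an adjusted p of 0.0733 with that library and 0.183 without it (0.0315 with DESeq2 and all libraries), and night minus day gave 0.135 (log2 0.24 ± 0.10) and 0.323 (log2 0.14). The part of smooth muscle cells in the Flna level was not tested.

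**Figure D3:**
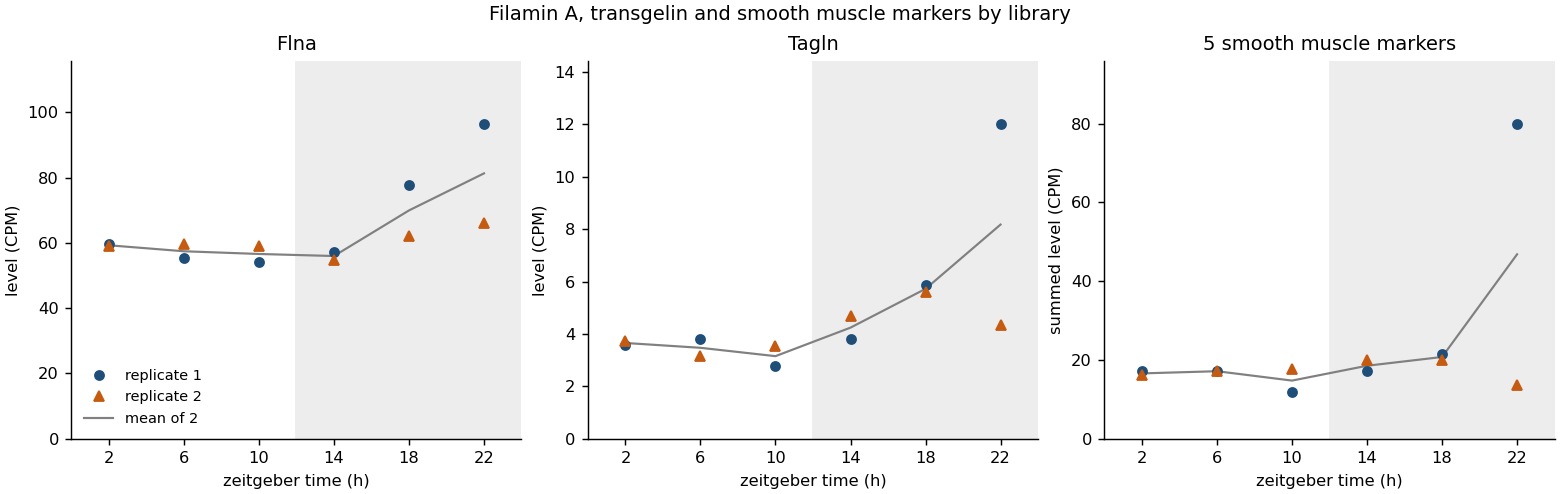
Flna and Tagln in CPM and the summed CPM of 5 smooth muscle markers, among them Tagln (vertical axes, from 0), by zeitgeber time in hours; circles and triangles are replicates 1 and 2, the line joins means of 2, and grey marks ZT12 to ZT24. ZT22 replicate 1 is highest in each panel, at 96.4, 12.0 and 79.9 CPM.

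Night minus day thus called 4 of the 10 genes higher (Srf, Actg1, Vcl and Myh9) and 0 lower, where it called 9.70% of all tested genes, 4.80% higher and 4.89% lower. With total counts in place of TMM factors, 1077 genes of the whole table were called higher and 624 lower, against 823 and 839. The test of any difference among time points called Srf, Actg1 and Myh9, 3 of the 10, and 4.82% of all genes. At the other end of the night, ZT02 minus ZT22 called 0 of the 10 with edgeR, 0 with DESeq2 and 0 with limma-voom, and 0.00583% of all genes with edgeR; 3 of the 10 (Srf, Flna and Myh9, each lower at ZT02) had an unadjusted p under 0.05, as did 9.33% of all genes.

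**Figure D4:**
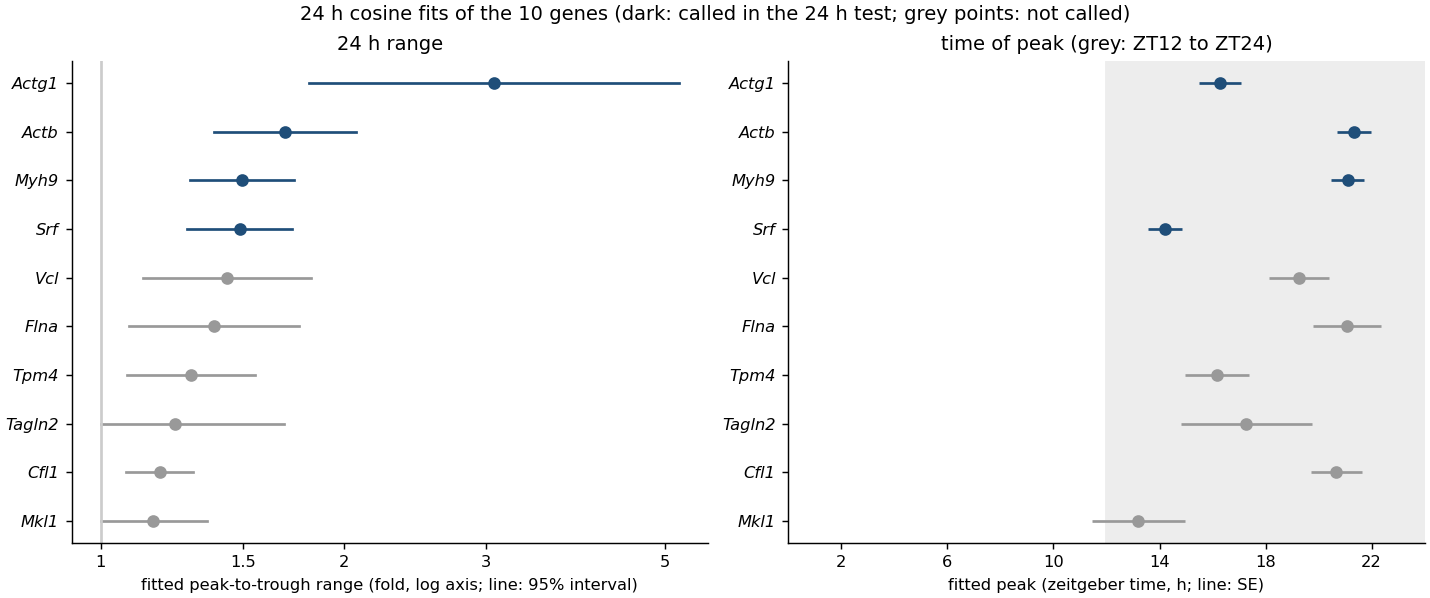
Left, the fitted peak-to-trough range of each gene as a fold on a log axis, with its 95% interval; right, the fitted peak in zeitgeber hours with its SE, grey marking ZT12 to ZT24. Dark points are the 4 genes called in the 24 h test and grey points the 6 that were not; Actg1 has the largest range, 3.07-fold, and Srf and Actg1 peak earlier than Actb and Myh9.

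Across the 12 libraries, Srf was set against each of the other 9 genes on the log2 scale, and no relation passed the adjustment over the 9. The strongest was with Actg1, with a Pearson r of 0.634 (permutation p = 0.0284, adjusted 0.255) and a Spearman rank correlation of 0.546 (permutation p = 0.0714, adjusted 0.385). Without ZT02 replicate 1 and ZT14 replicate 1, the libraries farthest from the median of Srf, r with Actg1 was 0.495. After the mean of each time point was taken away, r with Actg1 was -0.444, a description of 6 pairs of libraries. With Tpm4 r was 0.545 (adjusted permutation p = 0.306), with Mkl1 0.426 (0.505) and with Actb -0.255 (0.759). These relations mix time of day with differences between libraries.

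Further genes of the pathway were read from 6 lists. The list of MRTF-SRF targets had 22 tested genes, of which 3 were called in the 24 h test and 3 were called higher at night, with none lower (DESeq2 called 8 and 4, limma-voom 1 and 2), where 12.0% and 4.80% of all genes were called. All 22 had a positive night minus day difference, as did 51.2% of all genes. The smallest was 0.02 and the median 0.28 on the log2 scale. The list holds smooth muscle genes that were high in ZT22 replicate 1, such as Acta2 at 20.4 CPM there and 1.12 to 3.28 CPM in the other 11 libraries. Without that library, an alternative chosen after the data were seen, 21 of 23 tested genes had a positive difference, the median was 0.19, Tpm2 and Pdlim7 were negative, and 2 genes were called in each test. Zyx (zyxin, a focal adhesion protein) was at 45.3 and 38.9 CPM at ZT14, and at 23.7 and 26.7 CPM at ZT10. That step was 0.74 on the log2 scale (adjusted p = 0.0220), and for Zyx it was not tried in the alternatives. Zyx averaged 34.6 ± 6.94 CPM at night and 26.8 ± 1.70 CPM by day (adjusted p = 0.0123). Itga5 (integrin alpha 5, part of the fibronectin receptor) averaged 25.7 ± 3.12 CPM at night and 19.5 ± 3.07 CPM by day (log2 0.41 ± 0.08, adjusted p = 0.0118), with a 1.58-fold range peaking at ZT 15.5 ± 0.82 h. Cyr61, a secreted matrix-associated protein, was called in the 24 h test (2.38-fold, adjusted p = 0.0376), with 10.6 CPM in ZT14 replicate 1 and 1.90 to 4.45 CPM in the other 11 libraries; without that library the call was lost, as it was without each of 7 others (adjusted p up to 0.127). Tagln, the smooth muscle transgelin, was at 12.0 CPM in ZT22 replicate 1 and at 2.78 to 5.86 CPM elsewhere. Its night minus day call (log2 0.77 ± 0.21, adjusted p = 0.0460) was kept without ZT22 replicate 2 alone and lost without each of the other 11 libraries. A CArG box was found in 9 of 21 genes of this list with a promoter window, against 1.81% of all genes with one. The 9 were Acta1, Actc1, Cnn2, Myl9, Fhl1, Fhl2, Filip1l, Vil1 and Lima1. Zyx, Itga5, Cyr61 and Tagln were not among them, and Actc1 and Vil1 were not among the 22 tested genes. The list was drawn up as SRF targets, so its share of matches is no independent result. In the other lists a CArG box was found in 0 of 4 SRF cofactors, 1 of 7 immediate early genes and 1 of 20 genes of actin turnover. It was also found in 0 of 11 adhesion and cross-linking genes and 1 of 8 non-muscle myosin genes.

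In the SRF cofactor list, Elk4, a ternary complex factor, was called lower at night, at 60.3 ± 4.65 CPM against 75.3 ± 4.43 CPM by day (SD, n = 6 each; log2 -0.32 ± 0.06, adjusted p = 0.0134). All 4 tested cofactors had negative night minus day differences, where 51.2% of all genes had a positive one. EdgeR, which called 4.89% of all genes lower, and limma-voom called no other cofactor. DESeq2 called 2 of the 4, and 2069 of all genes. The night minus day call of Elk4 ended, with adjusted p up to 0.0606, if either ZT18 replicate 1 or ZT22 replicate 1 was removed. Among 7 immediate early genes, which ternary complex factors drive, Egr1 was called in the 24 h test. Egr1 was measured at 28.9 and 6.32 CPM at ZT02, 2.20 and 1.57 CPM at ZT06, 2.71 and 0.910 CPM at ZT10, 1.15 and 0.756 CPM at ZT14, 2.13 and 1.78 CPM at ZT18, and 3.40 and 8.18 CPM at ZT22. It was thus low at ZT14, where Srf was highest, and high at ZT02, where Srf was lowest. Its fitted range was 9.43-fold (95% interval 2.86 to 31.2, adjusted p = 0.00942) with a peak at ZT 0.77 ± 0.90 h. In night minus day 0 immediate early genes were called by edgeR, DESeq2 or limma-voom. Of the 7, 1 had an unadjusted edgeR p under 0.05, as did 26.6% of all genes. The median difference of the list was -0.34 on the log2 scale.

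Of 21 genes of actin turnover, 0 were called by edgeR in the 24 h test and 0 in night minus day. In each test 3 had an unadjusted p under 0.05, as did 31.5% and 26.6% of all genes. DESeq2 called 2 and 0 of them, limma-voom 0 and 0, and their median night minus day difference was 0.00 on the log2 scale. The 2 most abundant were Dstn (destrin, a cofilin relative), at 136 ± 9.21 CPM at night and 142 ± 8.99 CPM by day, and Pfn1 (profilin, which binds actin monomers), at 138 ± 10.1 CPM and 132 ± 8.68 CPM. Of 9 non-muscle myosin genes other than Myh9, 0 were called in these tests by edgeR, DESeq2 or limma-voom. An unadjusted edgeR p under 0.05 was found for 3 of them in each test, beside the same 31.5% and 26.6% of all genes. Mylk, the kinase that activates myosin light chains, averaged 99.8 ± 5.36 CPM at night and 90.0 ± 15.3 CPM by day (adjusted p = 0.121).

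Of 16 adhesion and cross-linking genes, 2 were called higher at night and 1 lower. Lasp1, an actin-binding protein of focal adhesions, was at 132 ± 23.3 CPM at night and 90.5 ± 10.8 CPM by day (SD, n = 6 each; log2 0.54 ± 0.07, edgeR adjusted p = 0.00261), with 155 and 165 CPM at ZT18 above all other libraries. Rdx, radixin, which links filaments to the membrane of bile canaliculi, was lower at night, at 283 ± 21.5 CPM against 348 ± 33.6 CPM by day (log2 -0.30 ± 0.08, adjusted p = 0.0327). Removing a library ended the call of Rdx in 10 of 12 cases (adjusted p up to 0.119). The calls of Lasp1 and the night minus day call of Zyx were kept in all 20 alternatives.

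**Figure D5:**
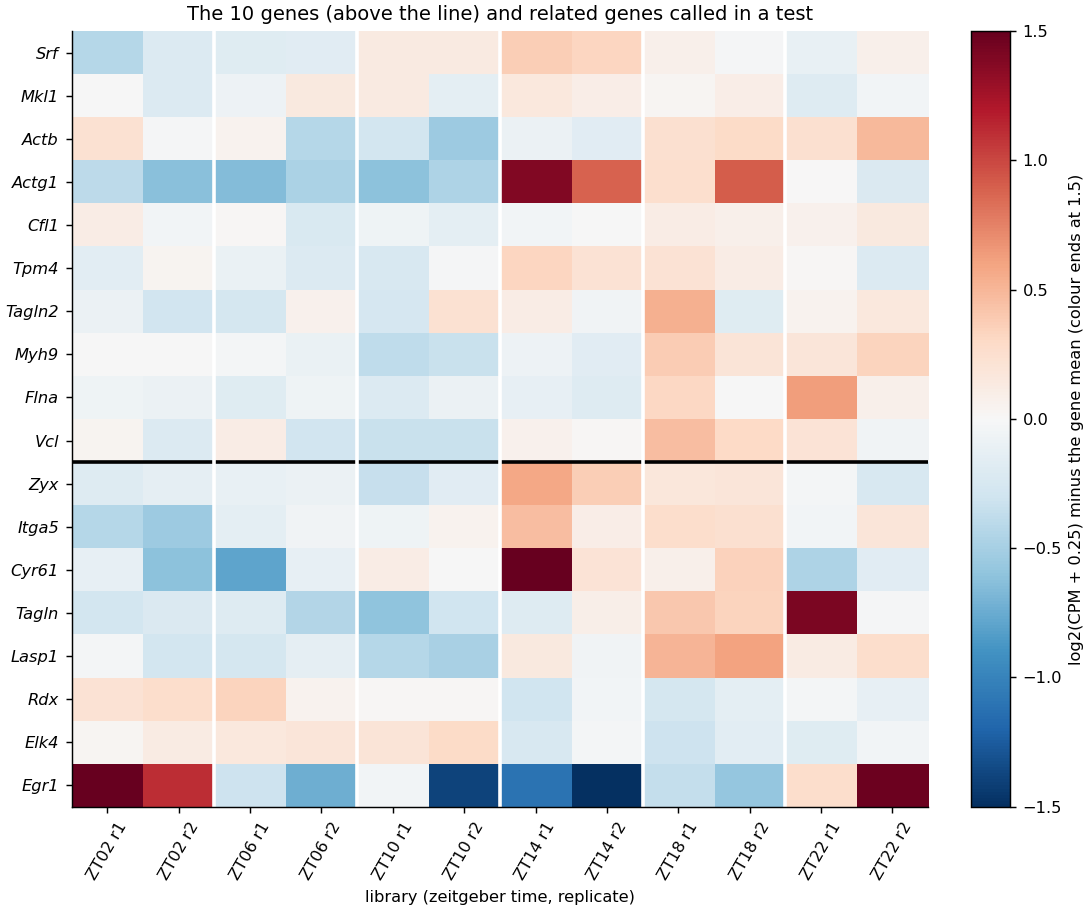
Levels of the 10 genes (above the line) and of 8 related genes called in a test (below it) in the 12 libraries, as log2(CPM + 0.25) minus the gene's mean; red is above the mean and blue below it, and colours end at 1.5 (Egr1, Cyr61 and Actg1 lie near or past the ends). Actg1 and Zyx are highest at ZT14, Actb, Myh9 and Lasp1 at ZT18 or ZT22, and Egr1 at ZT02.

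The genes most like Srf over the 12 libraries, by Pearson r of log2 CPM among genes that averaged 5 CPM or more, were Samd1 (0.967), Ftsj3 (0.956), Vasn (0.956), Vhl (0.955), Gcc1 (0.952) and Neurl4 (0.950). Those most like Actb were Cyp2d40 (0.956), Klhdc4 (0.954), Prg4 (0.948), Ccbl1 (0.946), N6amt2 (0.946) and Slc26a1 (0.943). The 10 members were left out of this search beforehand, as were genes with clone or model names. None of the 12 genes is on a pathway list. These values describe likeness over 6 time points of 2 libraries that all genes share.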

How the data were processed

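Total RNA of 12 liver samples was rRNA-depleted and sequenced with a stranded kit and paired ends, according to the labels. Raw exon counts per gene were deposited by the authors in 1 table, without normalization. The submitters' processing notes name STAR 2.4.0i and mm10; the counting tool is not given in the sources used here. Labels gave 6 groups of 2 with replicate numbers. No 2 replicates were alike within sampling noise (chi-square over its degrees of freedom was 15.5 to 92.2), so each counts as 1 library.

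R 4.3.3 and edgeR 4.0.16 were used, with TMM factors, filterByExpr (minimum count 10, minimum total 15), glmQLFit and glmQLFTest. Contrasts came from a 6-group model, and the rhythm test from a model of cosine and sine terms with a period of 24 h. A contrast's SE is its log2 difference over the square root of F. Ranges, peaks and 95% intervals are least-squares estimates on log2 CPM (prior count 2; 9 residual degrees of freedom). P-values were adjusted over all 17142 tested genes. Permutation tests were two-sided with 1e+05 resamples. Exon lengths and coordinates are from GENCODE M21 on GRCm38, promoters from RefSeq on GRCm38.p6. The edgeR tests were checked on simulated counts, and the permutation tests, DESeq2 and limma-voom were not.

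The members and lists were chosen with earlier results of these data known. All members are named. From each other list come at most 4 called genes, smallest adjusted p first; a list with no called gene gives its 2 most abundant. Some genes and 1 list that the rule covers are not reported here. Genes outside that rule, such as Myh11 and Krt19, were chosen after their values were seen. Alternatives were DESeq2 1.42.0, limma-voom (limma 3.58.1), RLE factors, total counts, no filter on low counts, a replicate block, each library left out, and pairs of ZT02 and ZT06 libraries left out.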

Additional observations from a re-analysis of the deposited data

Results flagged for a closer look

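None of the 10 genes had a library that stood apart within the night or the day libraries. The summed markers of other cell types did in 7 of 24 groups of 6 libraries tested, and the genes in 0 of 20, where chance alone gives about 1 in 20; in each, the gap from the highest or lowest library to the next was large against the range of the group. Smooth muscle markers summed to 79.9 CPM in ZT22 replicate 1, against 13.7 to 21.5 CPM in the other night libraries, and to 11.8 CPM in ZT10 replicate 1, against 16.1 to 17.8 CPM in the other day libraries. Pancreatic acinar markers summed to 22.4 CPM in ZT14 replicate 2, against 0.334 to 2.98 CPM in the other night libraries, and to 4.46 CPM in ZT10 replicate 1, against 0.537 to 1.12 CPM in the other day libraries. Lymphocyte markers summed to 4.86 CPM in ZT10 replicate 1, against 7.04 to 8.04 CPM in the other day libraries. Erythroid markers summed to 351 CPM in ZT02 replicate 1, against 113 to 148 CPM in the other day libraries, and hepatocyte markers to 141000 CPM in the same library, against 105000 to 117000 CPM.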

How the results depend on the processing

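Of the 10 genes, 4 were called in the 24 h test and 3 to 6 in its alternatives (3 without ZT02 replicate 1 and ZT06 replicate 2, 6 with DESeq2), and 4 to 5 without 1 library. For any difference among time points 3 were called, 5 with DESeq2, 1 without ZT02 replicate 1 and ZT06 replicate 2, and 1 to 3 without 1 library. For night minus day 4 were called, 2 with no filter on low counts, 2 without ZT02 replicate 2 and ZT06 replicate 1, 1 without ZT02 replicate 1 and ZT06 replicate 2, and 1 to 4 without 1 library. ZT14 minus ZT10 called 1, and 0 to 1 without 1 library; ZT02 minus ZT22 and the relations with Srf called 0 throughout. Replicate numbers did not pair the libraries over all time points. Of 15 pairs of time points, 5 had a correlation of same-numbered deviations over 0.1 (-0.222 to 0.501 over 9876 genes). The highest, 0.501, was between ZT02 and ZT06, and the next, 0.258, between ZT14 and ZT18. With the replicate block 5 were called in the 24 h test, 2 for any difference, 3 for night minus day, 1 at the ZT14 step and 0 at the ZT02 step, and Srf was not called for night minus day (edgeR adjusted p = 0.0593) or any difference (0.0627). Over all genes the 24 h test called 2051, 3378 with DESeq2 and 1201 to 2225 without 1 library. Night minus day called 1662, and 611 to 1818 without 1 library; any difference called 826, 2524 with DESeq2 and 174 to 897 without 1 library. ZT14 minus ZT10 called 211, 707 with DESeq2 and 3 to 391 without 1 library, and ZT02 minus ZT22 called 1, 124 with DESeq2 and 0 to 33 without 1 library. The 24 h test called 1276 genes and night minus day 865 when ZT02 replicate 2 and ZT06 replicate 1 were left out, and 568 and 1107 when the other library of each was. Total counts moved the median night minus day difference of all genes by 0.0314 (log2). No difference past the threshold changed sign, but some that missed it did, such as Mkl1 in night minus day. Where calls changed, the cause was not tested.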
